A study of Mus musculus with 28 samples.

Results

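The regions described here are stretches of the mouse autosomes that carried an H3K9me2 domain in sorted mouse embryonic stem cells (mESCs) given DMSO and in none of the 3 other sorted conditions. They were chosen by their measured domain calls. A base was kept if it lay in a domain of the mESC DMSO list and in no domain of the mESC dTAG, 2CLC DMSO or 2CLC dTAG list, segments less than 1 kb apart were joined, and runs of at least 50 kb on chromosomes 1 to 19 were retained. This gave 574 regions that covered 58.9 Mb, which is 4.56% of the 1290 Mb held by the 3870 mESC DMSO domains and 2.39% of the 2463 Mb of autosomal sequence. They lay in 517 of those 3870 domains, or 13.4%.

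H3K9me2, dimethylation of lysine 9 of histone H3, is a repressive histone mark that forms broad domains over silent chromatin. It is deposited mainly by the methyltransferases EHMT2 (also called G9a) and EHMT1, which act as a dimer. 2-cell-like cells (2CLCs) arise rarely and spontaneously in mESC cultures and express transcripts that are typical of the 2-cell embryo, among them the endogenous retrovirus MERVL, from which a GFP reporter can be driven.

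All 4 sorted groups came from the EHMT2-dTAG-mcherry MERV-GFP line on a BL6/129 hybrid background, which per the methods is 1 clone, so the controls carried the degron-tagged EHMT2 as well. Cells were given DMSO or dTAG-13, a ligand that triggers degradation of the tagged protein, for 72 h, and MERVL-GFP-negative cells (mESC) and MERVL-GFP-positive cells (2CLC) were then separated by sorting. The labels state that TTNBP, a retinoic acid receptor agonist, was added in 2 of the replicates without saying which ones, while the methods give it for all sorted cells. H3K9me2 was profiled by ultra-low-input native ChIP in 3 libraries per condition. Each condition is represented by a single list of domain positions that holds no signal values, so depth is unknown, no spread between cultures could be computed, and no test of any difference between conditions was possible. All values below are descriptions of these lists. Domains were called by percentiles of signal, so absence from a list does not show that the mark was absent. The cell states rest on the GFP sort, because positions alone give no marker levels.

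A further list of H3K9me2 domains carries no condition in its name and was placed in no group. It is called the unnamed set. It did not enter the choice of the regions, and its domains follow another 5 kb grid. The series also holds 2 ChIP libraries of unsorted mESCs of the EHMT2-dTAG-mcherry line given DMSO for 24 h. Whether the unnamed set was made from these libraries, from the sorted ones or from both is not given in the sources used here, so it cannot be taken as an independent measurement of the mESC DMSO domains. Because the rule used the other 4 lists, the presence of a region in the mESC DMSO list and its absence from the rest are not findings. The unnamed set, the sequence and the gene annotation were not used by the rule.

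The widest region, 735 kb at chr1:125675042-126410040 (mm10), held the promoters of Gpr39, a zinc-responsive G protein-coupled receptor, and Lypd1, a Ly6-family protein that acts on nicotinic receptors. Their promoter sequences, and those of Tnp1 and Lrtm1 from other wide regions, are shown because gene starts were sparse in the regions. The starts there had fewer CpG dinucleotides than protein-coding starts in general (median 5 against 12 in 300 bases). They had more than starts in all 4 sorted lists (median 2). Each runs from 250 bases before to 50 bases after the start, 5′ to 3′ on the gene's strand, with every CG in capitals (RefSeq, GRCm38.p6). They lie at chr1:125676746-125677045 (plus strand, 8 CG), chr1:125912879-125913178 (minus, 9 CG), chr1:73015850-73016149 (minus, 6 CG) and chr14:29017958-29018257 (plus, 4 CG).
Gpr39: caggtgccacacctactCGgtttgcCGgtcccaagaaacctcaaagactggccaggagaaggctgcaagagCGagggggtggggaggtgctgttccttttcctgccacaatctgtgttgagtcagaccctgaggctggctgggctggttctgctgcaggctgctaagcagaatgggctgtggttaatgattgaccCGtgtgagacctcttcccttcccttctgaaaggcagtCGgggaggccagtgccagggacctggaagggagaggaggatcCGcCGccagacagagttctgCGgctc
Lypd1: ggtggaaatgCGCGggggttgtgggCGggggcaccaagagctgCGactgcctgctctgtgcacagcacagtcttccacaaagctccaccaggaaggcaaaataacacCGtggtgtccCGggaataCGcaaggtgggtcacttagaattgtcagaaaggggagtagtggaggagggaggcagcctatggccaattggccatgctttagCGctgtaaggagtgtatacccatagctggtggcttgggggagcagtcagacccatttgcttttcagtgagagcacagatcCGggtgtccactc
Tnp1: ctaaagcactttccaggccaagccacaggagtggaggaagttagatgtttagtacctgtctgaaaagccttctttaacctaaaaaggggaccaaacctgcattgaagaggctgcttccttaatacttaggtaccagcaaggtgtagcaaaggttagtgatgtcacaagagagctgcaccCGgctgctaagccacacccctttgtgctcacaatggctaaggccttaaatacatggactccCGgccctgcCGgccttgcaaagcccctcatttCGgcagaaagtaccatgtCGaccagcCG
Lrtm1: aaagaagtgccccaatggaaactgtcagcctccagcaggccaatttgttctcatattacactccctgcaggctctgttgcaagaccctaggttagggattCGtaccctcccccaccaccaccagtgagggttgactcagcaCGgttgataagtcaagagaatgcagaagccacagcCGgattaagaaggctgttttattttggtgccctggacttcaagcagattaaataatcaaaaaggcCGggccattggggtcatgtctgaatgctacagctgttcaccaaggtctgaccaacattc

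Most regions were short relative to the widest one. The median width was 80 kb, with quartiles of 60 and 115 kb. Of the 574 regions, 368 (64.1%) were under 100 kb, 163 (28.4%) were at least 100 kb but under 200 kb, and 43 (7.49%) measured 200 kb or more. The last group held 20.9% of all bases. Boundaries fell on a 5 kb grid, so widths came in 5 kb steps. To the nearest kb there were 76 mESC DMSO-only runs of 45 kb, 48 of 50 kb and 63 of 55 kb. Of those at 50 kb, 2 fell just short of the limit through rounding of the grid positions. Without a minimum width there were 2251 such runs over 85.4 Mb, so the regions retained 69.0% of the bases found only in the mESC DMSO list. Applied to the other lists, the rule gave 224 regions (19.1 Mb) for 2CLC DMSO, 68 (4.20 Mb) for mESC dTAG and 200 (14.2 Mb) for 2CLC dTAG. The mESC DMSO list gave more regions than the 2CLC DMSO list on 19 of 19 chromosomes. Chromosomes are parts of the same lists and not replicates, here and in later counts. The lists also differed in size, which bears on these counts. The mESC DMSO list held 3870 domains over 1290 Mb and the 2CLC DMSO list 3870 over 1224 Mb. The mESC dTAG list held 6770 over 1099 Mb and the 2CLC dTAG list 8281 over 1150 Mb. A further 776 regions (78.1 Mb) lay in both DMSO lists and in neither dTAG list.

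**Figure D1:**
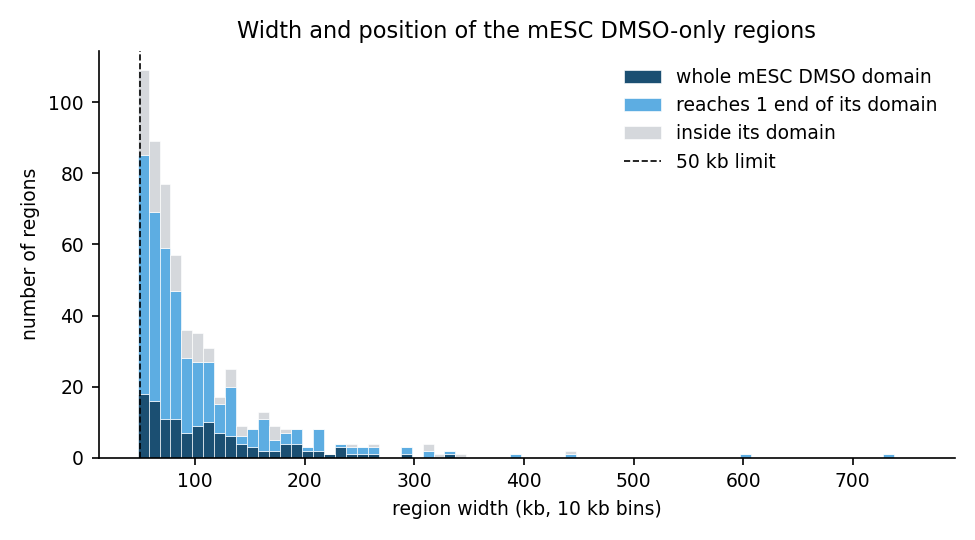
The histogram gives the number of mESC DMSO-only regions (vertical axis) by width in kb (horizontal axis, 10 kb bins), coloured by position in the mESC DMSO domain, and the dashed line marks the 50 kb limit. The counts fall steeply from the limit, and the tail ends with regions of 600 and 735 kb.

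Regions that reached an end of their mESC DMSO domain were the most frequent. The region was a whole mESC DMSO domain in 127 cases (22.1%, Wilson 95% interval 18.9 to 25.7), with a median width of 100 kb. Another 331 (57.7%, 53.6 to 61.6) reached 1 end of the domain and took a median of 38.7% of it. The remaining 116 (20.2%, 17.1 to 23.7) lay inside a domain, whose median width was 440 kb, with bases shared with another list on both sides. These intervals cover variation over regions only. The domains that held a region had a median width of 195 kb. All mESC DMSO domains had a median of 145 kb, but they include domains too narrow to hold a region, so the difference follows in part from the minimum width. Most of them, 466 of 517, held a single region, whereas 45 held 2 and 6 held 3. The widest whole domain among the regions was 335 kb in Sox5, which encodes a SOX-family transcription factor (chr6:144001216-144336215).

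At 585 of the 1148 region edges (51.0%) the mESC DMSO domain itself ended, and at the other 563 a domain of another list began. The list that began there was 2CLC DMSO alone at 205 edges, mESC dTAG alone at 132 and 2CLC dTAG alone at 129. Several lists began together at the rest, most often both dTAG lists, at 50 edges. The nearest domain lay at a median of 15 kb for mESC dTAG, 17.5 kb for 2CLC DMSO and 12.5 kb for 2CLC dTAG. For 37 regions no domain of these 3 lists lay within 100 kb, and the farthest such domain was 560 kb away.

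**Figure D2:**
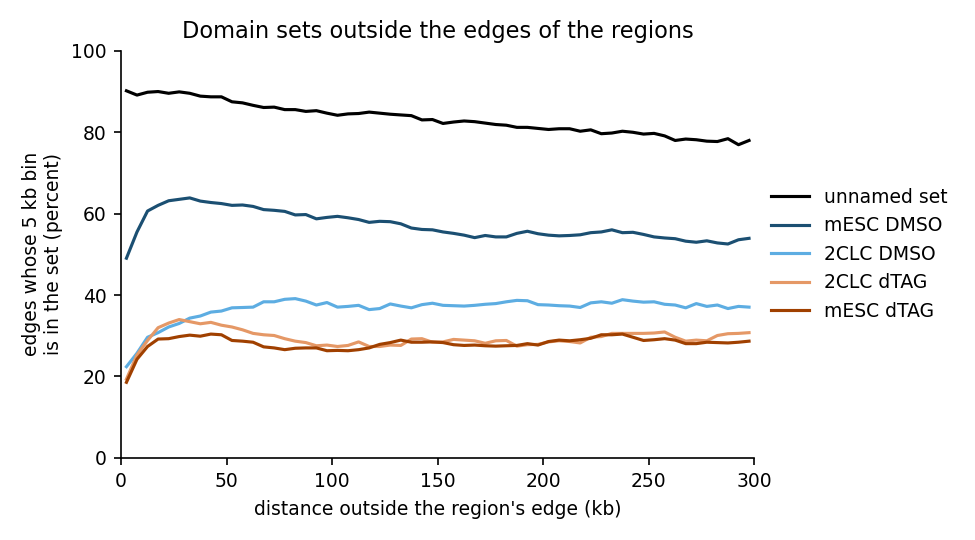
Lines give the percentage of the 1148 region edges whose 5 kb bin at a given distance outside the edge (horizontal axis, kb) lay at least 50% in each domain list. In the first bin outside, 90.2% of edges were in the unnamed set. The mESC DMSO list held 49.0% and the other 3 lists 18.5% to 22.4%, which follows from how the edges were defined and is not a finding.

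Nearly all of the sequence of the regions also lay in a domain of the unnamed set. That set covered 97.3% of their bases, against 63.3% of all 5 kb bins of chromosomes 1 to 19. Of the 574 regions, 565 touched it (98.4%, Wilson 95% interval 97.1 to 99.2), 544 were at least 90% covered and 461 (80.3%, 76.9 to 83.4) were covered throughout. Both intervals cover variation over regions only, and regions that share a domain are not independent. The coverage was 96.9% for whole domains, 97.1% for regions at a domain end and 98.5% for inner regions, so it differed little with position. It exceeded 90% on 18 of 19 chromosomes, and the lowest value was 88.8% on chromosome 14.

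The unnamed set was also the broadest list, with 6115 domains over 1559 Mb, and it covered 93.9% of all mESC DMSO domain bases. Its coverage of the regions was close to the 97.6% found for regions in both DMSO lists and neither dTAG list, and to the 94.2% for regions in all 4 sorted lists. It covered 87.9% of the bases found only in 2CLC DMSO, 53.3% of those found only in mESC dTAG and 45.9% of those found only in 2CLC dTAG. The regions had higher coverage than the 2CLC DMSO-only regions on 17 of 19 chromosomes. The unnamed set did not stop where the regions stopped, since it covered 89.4% of the 50 kb on either side. The narrower mESC DMSO-only runs, below 50 kb, were 90.2% covered. The 9 regions outside the unnamed set measured 50 to 160 kb, and the widest of them lay at chr9:114166472-114326471 and touched no protein-coding gene.

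**Figure D3:**
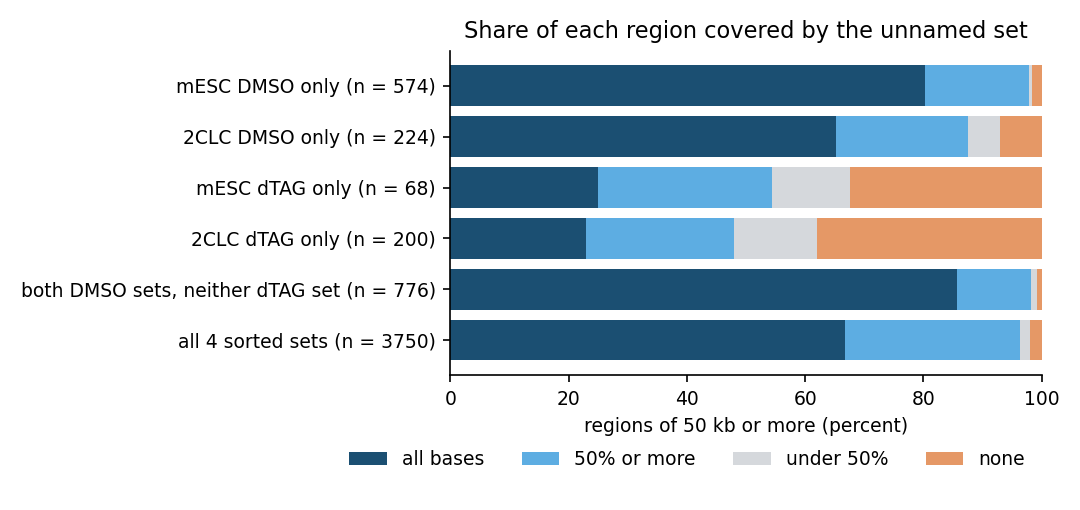
Each bar divides the regions of 1 class into those covered by the unnamed set at all bases, at 50% or more, at under 50% or not at all (percent of regions on the horizontal axis). All bases were covered in 80.3% of the mESC DMSO-only regions and 85.7% of those in both DMSO lists, against 65.2%, 25% and 23% of the regions found only in 2CLC DMSO, mESC dTAG and 2CLC dTAG.

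The regions were richer in GC and poorer in repeats than the domains that all 4 sorted lists shared. The median GC content of their 5 kb bins was 42.8% (quartiles 41.0 and 44.6), against 38.5% in regions of all 4 lists, 40.6% in regions of both DMSO lists alone and 41.1% in 2CLC DMSO-only regions. Autosomal sequence in none of the 4 lists had 45.2%, and the median of all autosomal bins was 41.4%. Taken chromosome by chromosome, GC was higher in the mESC DMSO-only regions than in each of the 3 compared classes on 19 of 19 chromosomes. Soft-masked sequence, which marks interspersed and simple repeats in the reference, made up a median of 20.7% of their bins, against 36.8% in regions of all 4 lists and 27.4% over the autosomes. The values were closer in the other classes, at 21.8% in regions of both DMSO lists alone, 22.9% in 2CLC DMSO-only regions and 23.6% outside all 4 lists. By chromosome, the soft-masked share was lower in the mESC DMSO-only regions than in regions of all 4 lists on 19 of 19 chromosomes, than in regions of both DMSO lists alone on 16 and than in 2CLC DMSO-only regions on 17. Uninterrupted soft-masked stretches of at least 5 kb, the size range of long LINE-1 or retroviral copies, occurred 0.596 times per Mb in the regions and 8.32 times per Mb in regions of all 4 lists. Such stretches occurred 1.155 times per Mb in regions of both DMSO lists alone, 1.24 in 2CLC DMSO-only regions and 0.258 outside all 4 lists.

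Sequence repeated within a chromosome was sparse in the regions. Repeated 50-base words, counted within a chromosome, made up 2.55% of the regions, against 13.0% of the regions in all 4 lists and 7.62% of the autosomes. The share was 5.26% in regions of both DMSO lists alone, 6.91% in 2CLC DMSO-only regions and 2.68% outside all 4 lists. Only 6 regions exceeded 20%, and 1 region consisted mostly of unknown bases (71.4% N, chr6:146006213-146076212). Within 1 mESC DMSO domain the same order was seen. Of the 331 regions at a domain end, 218 (65.9%) had a higher GC content than the rest of their domain and 274 (82.8%) had less soft-masked sequence, with median differences of 0.59 and -6.55 percentage points. Of the 116 inner regions, 73 (62.9%) had higher GC and 103 (88.8%) had less soft-masked sequence.

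**Figure D4:**
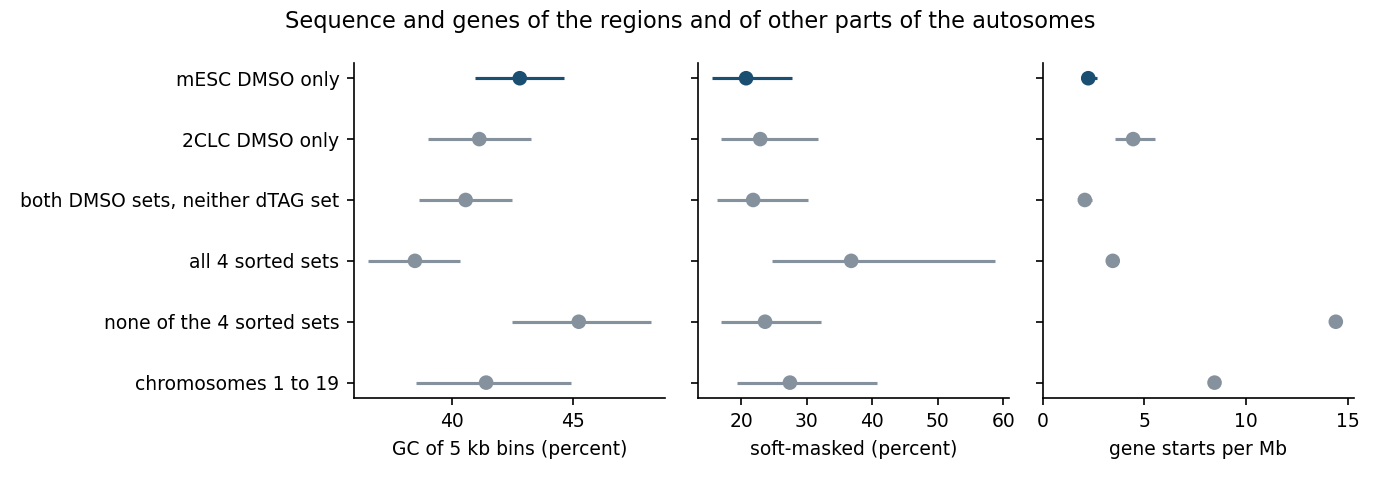
Panels from left to right give GC and soft-masked percentages of 5 kb bins (points, medians; lines, quartiles) and protein-coding gene starts per Mb (lines, Poisson 95% intervals over counts) for the mESC DMSO-only regions and 5 other parts of the autosomes. Among the domain classes shown, the mESC DMSO-only regions had the highest GC (42.8%), with few gene starts (2.24 per Mb). GC was not computed for the regions found only in mESC dTAG or only in 2CLC dTAG.

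Few genes began in the regions, although gene bodies ran through much of their sequence. Of 20807 autosomal protein-coding genes, 132 (0.634%) had their start in a region, which is 2.24 starts per Mb (Poisson 95% interval 1.88 to 2.66). The density was 2.07 per Mb in regions of both DMSO lists alone, 3.45 in regions of all 4 lists and 4.45 in 2CLC DMSO-only regions. It was higher in mESC dTAG-only regions (10.25) and 2CLC dTAG-only regions (12.4). Outside all 4 lists it was 14.4, and over the autosomes 8.45. No protein-coding gene began in 473 of the 574 regions, 83 held 1 start and 18 held 2 or more. Gene bodies nevertheless covered 45.8% of the bases, against 17.4% in regions of all 4 lists and 40.3% of the autosomes. This was near the values of 46.8% in 2CLC DMSO-only regions, 44.5% in mESC dTAG-only regions and 43.5% in regions of both DMSO lists alone. In 2CLC dTAG-only regions the share was 40.15%. A single gene enclosed the whole region in 164 cases (28.6%), and 244 regions (42.5%) touched no protein-coding gene. These counts were not made for other classes or for stretches of matched width, so they were not read as a trait of the regions.

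Genes with a start in the regions had a median length of 37.6 kb, and 46 of 132 (34.8%) exceeded 100 kb. Genes with a start in all 4 lists had a median of 7.72 kb, and 6.67% exceeded 100 kb. The corresponding values were 9.26 kb and 11.2% for genes with a start elsewhere in mESC DMSO domains, and 17.6 kb and 11.4% over all protein-coding genes. Gene length was not computed for regions of both DMSO lists alone or 2CLC DMSO-only regions, so long genes cannot be called particular to these regions. In the 300 bases around the start, the median number of CG dinucleotides was 5 for the 132 genes (quartiles 3 and 10), 2 for genes in all 4 lists, 16 for genes outside all 4 lists and 12 for all genes. At least 10 CG were present at 30.3% of starts in the regions, against 8.74% in all 4 lists and 54.5% of all starts. By this measure the starts stood between those of the shared domains and those outside domains, as did the 4 printed promoters with 4 to 9 CG. The 333 starts in both DMSO lists and neither dTAG list also stood between, with a median of 3 CG and at least 10 CG at 17.7%.

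Where an mESC DMSO domain ended at a region's edge, gene starts were frequent just outside it. In the first 5 kb beyond these 585 edges there were 15.7 protein-coding starts per Mb, and in the next 5 kb 13.3. In the last 5 kb inside the edge the density was 6.15, and in the 5 kb before that 2.05. At the 563 edges where another list began, no such step was seen, with 4.26 starts per Mb in the last 5 kb inside and 2.49 in the first 5 kb outside. These kinds of edge differ by definition, because another list lay within 1 kb at only 13 of the 585 domain ends. Sequence outside all 4 lists had 14.4 starts per Mb. Ends of mESC DMSO domains without a region were not profiled, so the step cannot be called particular to the regions. Median GC moved in a similar way by small amounts. It was 43.3% in the last bin inside and 43.7% in the first bin outside at the domain ends, and 42.6% in both bins at the other edges. An example is the 600 kb region at chr9:97431495-98031493, which took up almost all of Clstn2 (calsyntenin 2, a synaptic adhesion protein). The gene starts at position 98033181, just outside the end of the domain.

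**Figure D5:**
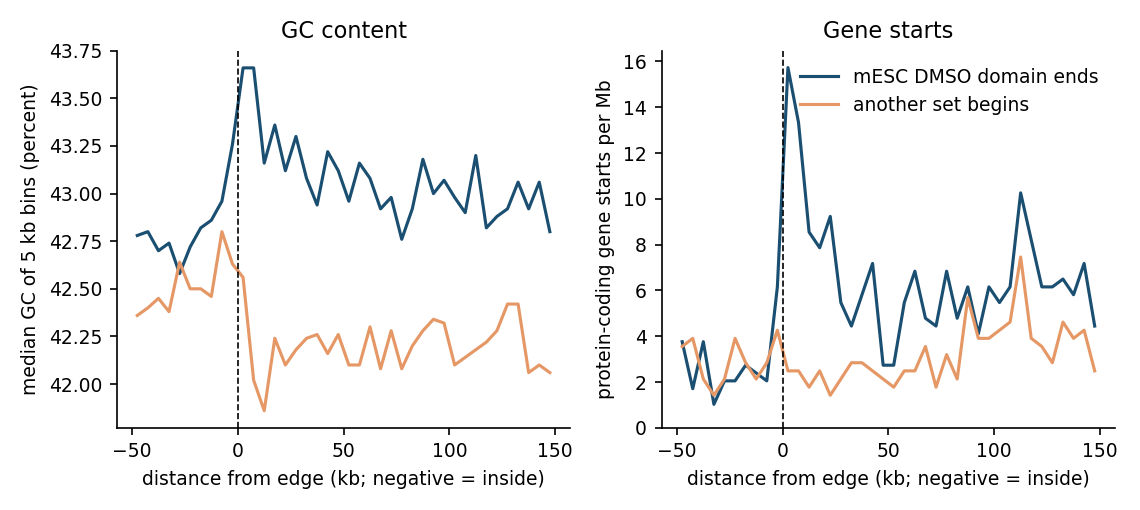
Median GC of 5 kb bins (left) and protein-coding gene starts per Mb (right) against distance from the region's edge in kb, with negative distances inside the region, for edges where the mESC DMSO domain ended and edges where another list began. Gene starts reach 15.7 per Mb in the first bin outside domain ends, and 2.49 in the first bin outside the other edges.

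Several genes held long stretches of this sequence in their bodies. They were picked after their values were seen, from those with the most bases in the regions, a ranking that favours long genes. Rbms3, which encodes an RNA-binding protein, held 669 kb in 6 regions, or 63.3% of its 1057 kb. Nckap5 held 666 kb in 2 regions, and Clstn2 held 587 kb, or 99.7% of the gene, in 1 region. Dab1, an adaptor of reelin signalling, held 480 kb in 4 regions. Ephb1, an ephrin receptor, held 424 kb, or 98.1% of its length. In all, 355 protein-coding genes touched a region and 43 of them touched 2 or more.

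Grin2b, an NMDA-type glutamate receptor subunit, shows how several regions can share 1 gene. Its 460 kb (chr6:135713233-136173511, minus strand) were 88.0% covered by 3 regions. The first, at chr6:135541227-135791226, took 86.2% of a 290 kb domain. The second (chr6:135836227-136126226) and the third (chr6:136136227-136336225, which holds the gene's start) were whole mESC DMSO domains. The first and the third lay fully in the unnamed set, and the second was 98.3% covered. Gria1, an AMPA-type glutamate receptor subunit, began in an inner region of 445 kb (chr11:56869759-57314757) that held 95.1% of the gene.

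The 10 widest regions lay on 7 chromosomes and took in further genes. A 440 kb region (chr9:101906489-102346487) held Ephb1, and one of 390 kb (chr8:115307856-115697855) touched Wwox, an oxidoreductase gene, and Maf, a transcription factor gene. A 340 kb region (chr12:53542058-53882056) lay within Npas3, a neuronal transcription factor gene. The region of 335 kb on chromosome 2 (chr2:160012765-160347764) held the start of the predicted gene Gm826. One of 325 kb (chr1:184224964-184549963) touched no protein-coding gene, and one of 315 kb (chr1:72965112-73280111) held Tnp1, which encodes a spermatid protein that replaces histones. Of the 10, 8 were completely covered by the unnamed set, and those in Npas3 and at chr1:184224964-184549963 were 98.5% covered.

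Genes with a start in the widest regions are given here by what they encode. Ntrk3, a neurotrophin receptor, began in a whole domain of 145 kb. Other receptors and regulators were Gpr39, Adra1b (an adrenergic receptor), Nr1h4 (the bile acid receptor FXR), Hhip (a hedgehog-binding inhibitor), Pde4b (a cAMP phosphodiesterase) and Mast4 (a kinase). Membrane and transport proteins included Abca12, a lipid transporter of the epidermis, in a whole domain of 260 kb, Slco3a1, an organic anion transporter, Tspan8, a tetraspanin, and Ntm, a neuronal adhesion protein. Anxa3 (an annexin) and Dpt (dermatopontin, of the extracellular matrix) were also present. Others were Lypd1, Gria1, Gm826, Tnp1, Lrtm1, Gm765, Spink13, 3110018I06Rik, ccdc198, Grin2b, Gm8994, Nudt7, Vat1l, Pdzrn4 and 1700012B07Rik. The regions that held these starts were between 79.1% (Pdzrn4) and 100% covered by the unnamed set.

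Among the gene lists counted, ion channels and neurotransmitter receptors had the largest share of starts in the regions. They had 7 of 258 genes (2.71%) against 0.634% of all protein-coding genes, with Gria1, Grin2b, Adra1b and Scn7a as examples. Of the 49 list members that began in any mESC DMSO domain, the 7 were 14.3%, against 2.96% over all 4453 such genes. The lists were chosen with earlier results known and were not matched for gene length. Of the genes with a start in the regions, 34.8% exceeded 100 kb, against 11.4% of all genes. Neuronal adhesion and guidance genes had 2 of 203 (Ntm and Cntnap4), or 0.985%, and 3.45% of those that began in any mESC DMSO domain, both nearer the shares of all genes. Immune and secreted gene clusters had 6 of 562 (1.07%). These were 1.97% of the 305 that began in any mESC DMSO domain, below the 2.96% over all such genes. The 6 lay in 3 regions: Cxcl5 with Cxcl3, Il24 with Il20 and Il19, and Ccl20. Olfactory and vomeronasal receptors had 6 of 1504 (0.399%), 5 of them in 1 region, although 1360 of the 1504 began in an mESC DMSO domain.

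No start lay in the regions for 40 genes of the 2-cell list, 18 pluripotency genes, 20 genes of the H3K9 methylation machinery, 194 homeobox and other developmental factors, 416 zinc finger genes or 89 cytosolic ribosomal protein genes. With 0.634% of all protein-coding starts in the regions, counts of 0 in lists of these sizes are near the background share, and nothing was read from them. These lists differed in where their genes did begin. Of the 2-cell genes, 35 of 40 began in an mESC DMSO domain and 32 began in all 4 sorted lists. None of the pluripotency genes began in an mESC DMSO domain, and 2 of the developmental factors did. The zinc finger genes stood between, with 84 of 416 in mESC DMSO domains and 47 in all 4 lists. Several lists hold clustered families, so their genes are not independent of each other.

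The regions were spread over every autosome, at unequal density. Chromosome 9 had the most per length, 33.7 regions per 100 Mb, and the regions made up 9.45% of its mESC DMSO domain bases. Chromosome 3 had the fewest, 13.7 per 100 Mb and 1.87%. The median over chromosomes was 24.0 per 100 Mb. Of the 574 regions, 312 (54.4%) were within 500 kb of another, and the median gap was 1.17 Mb. No background share was computed for this spacing, so it was not read as clustering. It follows in part from the rule, since regions lie only in mESC DMSO domains and 51 domains held 2 or more. The 5 Mb window with the most bases in regions, chr1:184224964-189224963, held 14 regions with 1920 kb in all and included those of Esrrg, a nuclear receptor gene of which 64.3% lay in 3 regions.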

How the data were processed

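H3K9me2 ULI-NChIP and input libraries were prepared from sorted cells. The steps that follow are per the methods and the submitters' processing notes. The authors aligned reads to mm10 with STAR 2.7.10, keeping multi-mapping reads, and removed high-signal regions. Coverage was scaled to the genome with chromosome X left out of the scaling, and log2(ChIP/input) was taken in overlapping windows on a 5 kb grid. Bins above an upper percentile of this ratio were extended in both directions until a bin below a lower percentile. A domain can therefore include bins of middling signal, and its call depends on rank within a distribution. Picard 2.26.0, SAMtools 1.14, bedtools 2.30.0, deepTools 3.5.1 and R 4.1.2 are also named. How replicates were pooled, and whether thresholds were set per condition, is not given in the sources used here. The deposited lists hold positions and a score of 0 in every entry.

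Regions were derived from the 5 deposited lists with Python 3.11.15 and numpy 2.4.6, by interval arithmetic that was tested on simulated intervals. Sequence came from GRCm38.p6, on which mm10 is based, and genes from GENCODE M21. GC, soft-masked and repeated 50-base words were counted in 5 kb pieces, leaving out pieces with 50% or more N for the medians. A region was called whole, at a domain end or inner with a tolerance of 1 kb. Named genes were the protein-coding genes with a start in a region, in order of region width, every one in the 20 widest and then the next until 30 were named, and some items selected by this rule are not reported here. Of the 132 genes with a start in a region, 97 matched the RefSeq promoter table by symbol, and the first 4 of them off chromosome 18, leaving out a predicted gene, were printed. The 300-base windows used for CG counts were taken at every annotated start instead. The regions and gene lists were chosen with earlier results of these data known. No p-value was computed. The alternatives tried were other minimum widths and joining distances, boundaries placed on the 5 kb grid, short domains removed, chromosome X added, each chromosome left out, other overlap limits and other counts of genes.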

Additional observations from a re-analysis of the deposited data

How the results depend on the processing

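Joining segments up to 5 kb apart, not joining them, placing boundaries on the 5 kb grid and adding chromosome X, which contributed 1 region, left the number of regions between 573 and 576. Leaving out each chromosome in turn gave 520 to 558 regions, a median width of 80 kb throughout, 4.35% to 4.79% of mESC DMSO domain bases, and 97.1% to 97.7% coverage by the unnamed set. The minimum width set the size of the collection. A limit of 25 kb gave 1023 regions with a median of 55 kb and 5.74% of mESC DMSO domain bases, and a limit of 100 kb gave 203 regions, 135 kb and 2.61%. With domains of under 50 kb removed from every list, the regions rose to 698 and to 5.96% of domain bases. Under the choices other than leaving out a chromosome, coverage by the unnamed set was between 96.3% and 97.6%. The share of regions counted fell from 98.4% to 94.8% when 90% of a region had to be covered.

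Whole domains made up 17.0% of regions at 25 kb, 31.0% at 100 kb and 39.5% with short domains removed. Regions at 1 end made up 62.2%, 51.2% and 48.7%, and inner regions fell to 11.7% with short domains removed. Median GC was 42.9% and the soft-masked median 20.1% at 100 kb. Gene starts per Mb were 2.74 at 25 kb and 1.67 at 100 kb, 6.03 when any base of a gene body counted, and 11.2 when all annotated genes were counted.

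No paired analysis was possible because each condition has 1 list and no test was made. Differences between cultures, the effect of TTNBP, depth and the thresholds behind each list could not be examined.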
